A study of Mus musculus with 9 samples.

Results

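The CD45 congenic interval is the stretch of chromosome 1 that travels with Ptprc, the gene encoding the leukocyte phosphatase CD45, when the CD45.1 allotype is bred into the BL/6 background. Its members were taken as the protein-coding genes overlapping GRCm38 chr1:106465908-143697024 (37.2 Mb) that had at least 10 counts in at least 3 of the 6 BM samples, 1 gene left out. Of 200 protein-coding genes annotated there, 196 were in the count table, 98 passed the minimum, and the other 98 did not. The interval was named by the study itself as a source of strain differences. Members were chosen by their position and by their counts in the same BM samples, with earlier results of these data known, so their BM differences are described beside the same shares over all genes. The member closest to the count minimum was Phlda3, with 4, 14 and 9 counts in WT BM and 13, 9 and 10 in DNGR-1 KO BM. Just outside it, the calcium channel gene Cacna1s had 8, 0 and 4 counts in WT BM and 1, 10.8 and 25 in DNGR-1 KO BM.

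WT and DNGR-1 KO pre-cDCs, the committed precursors of conventional dendritic cells (cDCs), were sorted from mixed BM chimeras. In these, lethally irradiated BL/6 CD45.1/2 mice had received a 1:1 mix of BM from WT BL/6 CD45.1 mice and from Clec9aCre/Cre CD45.2 mice, in which Cre disrupts Clec9a, the gene for the receptor DNGR-1. The Clec9aCre/Cre line came from BL/N-derived ES cells backcrossed to C57BL/6J. There were 6 BM samples, 3 of each genotype, and 3 spleen samples, of which 1 was WT and 2 were DNGR-1 KO, each pooled from a pair of such chimeras. Genotype and CD45 allotype therefore changed together in all 9 samples: every WT cell carried the CD45.1 interval and every DNGR-1 KO cell the CD45.2 interval, and an effect of the missing receptor cannot be told apart from an effect of the interval for any gene below. Samples of WT BL/6 CD45.2 cells were not analysed here. The labels of WT samples carry both allotype names in different fields; the CD45.1 of the source field, which the study's design also gives, was followed.

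A congenic strain is made by crossing a donor allele into a recipient strain and selecting for it at each backcross. DNA on both sides of the selected gene comes along until recombination removes it, so that linked genes keep the donor's sequence. In BL/6 CD45.1 mice the donor is SJL, and a difference in sequence that changes how much RNA a linked gene gives acts in cis, in whichever cell expresses that gene. CD45 itself removes an inhibitory phosphate from SRC family kinases, and antibodies that distinguish its allotypes are used to follow donor cells in chimeras.

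Total counts were 17457336 to 18727345 in the WT BM samples, 20551395 to 20938563 in the DNGR-1 KO BM samples and 17103832 to 23722311 in spleen, and 3 counts correspond to 0.126 to 0.175 CPM (counts scaled to a common library total). The 98 members together took 0.567% to 0.775% of the BM counts. Clec9a had 905, 1574 and 1766 counts in WT BM and 1 count in each DNGR-1 KO BM sample, 2459 in WT spleen and 0 and 0 in DNGR-1 KO spleen, which matched the labels. All 10 fixed markers of progenitors and cDCs, such as Flt3 and Irf8, were detected in every sample. Genes listed as markers of other cell types were detected too. The 6 T and NK cell markers summed to 14.5 to 44.2 CPM in BM but to 715 CPM in WT spleen and 909 and 3000 CPM in DNGR-1 KO spleen, although the study's gate excluded cells stained for CD3, NK1.1, Ly6G, Ter119 and B cell markers. The 4 erythroid markers summed to 211 to 533 CPM in WT BM and 82.1 to 327 in DNGR-1 KO BM, and to 5025 CPM in WT spleen and 29996 and 9516 in DNGR-1 KO spleen. The globin genes Hba-a1 and Hbb-bs made up most of the spleen sums. Klf1, another of these markers, had 0 counts in WT spleen, 5 and 2 in DNGR-1 KO spleen and 233 to 5625 in BM. The 5 neutrophil markers summed to 1013 to 2169 CPM in WT BM and 797 to 2501 in DNGR-1 KO BM, and to 0.80 CPM or less in spleen. Mpo made up most of the BM sums, at 13857 to 46964 counts per sample, while Ly6g had 0 to 19. B cell markers stayed at 14.6 CPM or less, and 4 genes of the Y chromosome had 341 counts in DNGR-1 KO BM sample 1, 9 in sample 2 and 0 or 1 in the other BM samples, against 1193 and 1807 in DNGR-1 KO spleen and 0 in WT spleen. At a pair of mice per sample and 6 chimeras in all, the 3 BM samples of a genotype came from different mice, and the WT and DNGR-1 KO BM samples from the same ones.

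Comparing DNGR-1 KO with WT BM pre-cDCs asked which genes of the interval differ between the cells that carry its CD45.2 and CD45.1 forms. Ppfia4 rose and Csrp1 fell in DNGR-1 KO samples, and these were the only members of the 97 tested with an adjusted p under 0.05 (edgeR quasi-likelihood test, adjusted over all 13016 genes tested). Over all genes tested, 0.0307% passed, which was 4 genes, Clec9a among them. Yod1 was next, with the third lowest p of the members, and missed the threshold. At an unadjusted p under 0.05 there were 13 members, 9 higher and 4 lower in DNGR-1 KO samples, or 13.4% of those tested, against 3.83% of all genes tested (1.56% higher and 2.27% lower). Serpinb2, 1 of the 13, passed the count minimum through the WT samples alone, so its WT counts had to lie above its DNGR-1 KO counts. Without such members 12 of 95 (12.6%) remained. With the sample number as a block for shared chimeras, 14 members had an unadjusted p under 0.05, against 6.31% of all genes, and Ppfia4 and Csrp1 kept an adjusted p under 0.05.

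The RefSeq promoter windows of these 3 genes (GRCm38.p6, 300 bases each, mostly upstream of a start site, written 5′ to 3′ on the gene's strand) are shown because these members had the lowest p of the interval. They give the C57BL/6J reference, and the sequence of the CD45.1 strain was not used here. Capitals mark the GC box GGGCGG and the CCAAT box CCAAT, on either strand. For Ppfia4 and Csrp1, RefSeq places a start site at each of 2 positions, and the first Ppfia4 window lies outside the span that GENCODE M21 gives the gene.
Ppfia4, chr1:134344667-134344966, minus strand: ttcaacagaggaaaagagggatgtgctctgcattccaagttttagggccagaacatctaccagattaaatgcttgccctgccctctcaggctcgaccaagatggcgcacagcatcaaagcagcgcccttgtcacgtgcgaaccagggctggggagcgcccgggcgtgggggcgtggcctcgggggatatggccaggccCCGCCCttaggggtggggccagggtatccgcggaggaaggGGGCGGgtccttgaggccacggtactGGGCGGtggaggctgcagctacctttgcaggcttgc
Ppfia4, chr1:134332879-134333178, minus strand: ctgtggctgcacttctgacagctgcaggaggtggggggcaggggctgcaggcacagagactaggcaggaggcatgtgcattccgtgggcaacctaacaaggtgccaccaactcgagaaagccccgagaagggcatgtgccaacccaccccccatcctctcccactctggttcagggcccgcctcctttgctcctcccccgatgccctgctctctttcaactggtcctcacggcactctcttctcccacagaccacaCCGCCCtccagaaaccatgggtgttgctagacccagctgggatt
Csrp1, chr1:135728917-135729216, plus strand: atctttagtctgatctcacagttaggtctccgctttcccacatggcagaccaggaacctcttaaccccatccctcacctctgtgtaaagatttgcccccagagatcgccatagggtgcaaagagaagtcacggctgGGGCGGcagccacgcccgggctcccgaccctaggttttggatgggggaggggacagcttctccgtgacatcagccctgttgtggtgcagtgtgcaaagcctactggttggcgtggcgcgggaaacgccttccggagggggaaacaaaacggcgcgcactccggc
Csrp1, chr1:135719813-135720112, plus strand: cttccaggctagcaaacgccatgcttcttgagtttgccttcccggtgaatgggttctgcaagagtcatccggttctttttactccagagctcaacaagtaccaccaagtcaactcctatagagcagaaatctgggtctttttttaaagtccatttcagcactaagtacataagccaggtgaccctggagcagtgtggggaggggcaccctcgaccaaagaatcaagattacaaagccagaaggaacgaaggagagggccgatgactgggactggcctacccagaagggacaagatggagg
Yod1, chr1:130717077-130717376, plus strand: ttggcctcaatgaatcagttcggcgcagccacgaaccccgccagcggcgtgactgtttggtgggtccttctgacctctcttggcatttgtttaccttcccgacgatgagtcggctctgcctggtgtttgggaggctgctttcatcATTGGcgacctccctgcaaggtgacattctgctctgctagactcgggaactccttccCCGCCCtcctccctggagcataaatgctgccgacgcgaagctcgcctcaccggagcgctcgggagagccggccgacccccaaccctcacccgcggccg
The first Ppfia4 window held 3 GC boxes in 63.3% GC and 16 CpG dinucleotides, and the second held 1 GC box in 61.7% GC and 7 CpG dinucleotides. The Csrp1 window at the downstream start held 1 GC box and 17 CpG dinucleotides, while the upstream one held neither motif. The Yod1 window held 1 GC box, 1 CCAAT box and 24 CpG dinucleotides. None held the TATA box TATAAA on either strand. A promoter window was found for 87 of the 98 members. A GC box lay in 63.2% of these 87 genes and in 69.0% of the 8959 other coding genes tested in BM that had a window, a CCAAT box in 44.8% and 43.5%, and TATAAA in 5.75% and 8.24%. Over all genes with a window, unexpressed and noncoding ones included, the shares were 38.2%, 41.1% and 15.7%. The median GC content was 59.0% over the members' windows and 60.7% over those of the other coding genes tested. A match of these letters describes the window and does not mark a site in use.

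Ppfia4 encodes liprin-α4, a scaffold protein of the liprin family, and lies at chr1:134296783-134332928 on the minus strand (ENSMUSG00000026458), 3.84 Mb on the centromere side of the Ptprc start. It had 35, 55 and 75 counts in WT BM and 6034, 8945 and 7344 in DNGR-1 KO BM. The groups were far apart, at a mean of 2.98 CPM ± 0.87 for WT and 364 CPM ± 85.1 for DNGR-1 KO (SD, n = 3 each), or 122-fold higher. The log2 fold change was 6.93 (SE 0.36, adjusted p = 2.46e-05, edgeR). No other gene overlaps it in GENCODE M21. The WT spleen sample had 1 count, while DNGR-1 KO spleen had 5157 and 3977.

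Csrp1 encodes a LIM domain protein that binds actin filament partners such as α-actinin, and lies at chr1:135720061-135752232 on the plus strand (ENSMUSG00000026421), 2.46 Mb from the Ptprc start. It had 2484, 3535 and 3627 counts in WT BM and 595, 677 and 727 in DNGR-1 KO BM. Its mean level was 175 CPM ± 20.6 for WT and 32.6 CPM ± 5.10 for DNGR-1 KO (SD, n = 3 each), 5.39-fold lower with no overlap, at a log2 fold change of -2.43 (SE 0.24, adjusted p = 0.00657, edgeR). WT spleen held 816 counts against 171 and 245 in DNGR-1 KO spleen, 5.09-fold and 4.68-fold lower by CPM. Without WT BM sample 2 or 3, or DNGR-1 KO BM sample 2 or 3, its adjusted p was 0.0952, 0.0636, 0.0837 and 0.0671.

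Yod1, which encodes a deubiquitinase that works with the ATPase VCP in clearing proteins from the endoplasmic reticulum, lies at chr1:130717327-130724358 on the plus strand (ENSMUSG00000046404). Its counts were 93, 196 and 214 in WT BM and 1066, 855 and 787 in DNGR-1 KO BM. The mean was 9.04 CPM ± 2.93 for WT and 43.7 CPM ± 4.29 for DNGR-1 KO (SD, n = 3 each), and no samples overlapped. The log2 fold change of 2.27 (SE 0.31) had an adjusted p of 0.075 with edgeR, and passed in 6 of the 14 alternatives run, DESeq2 (adjusted p = 3.18e-08) and limma-voom (adjusted p = 0.0488) among them, with adjusted p up to 0.454 in the rest. Yod1 overlaps Pfkfb2 on the opposite strand, and whether counting used strand is not given in the sources used here. Pfkfb2 itself had 19, 101 and 50 counts in WT BM and 54, 19 and 1 in DNGR-1 KO BM, fewer than Yod1 had in every DNGR-1 KO sample. In spleen Yod1 had 95 counts for WT and 940 and 915 for DNGR-1 KO.

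**Figure D1:**
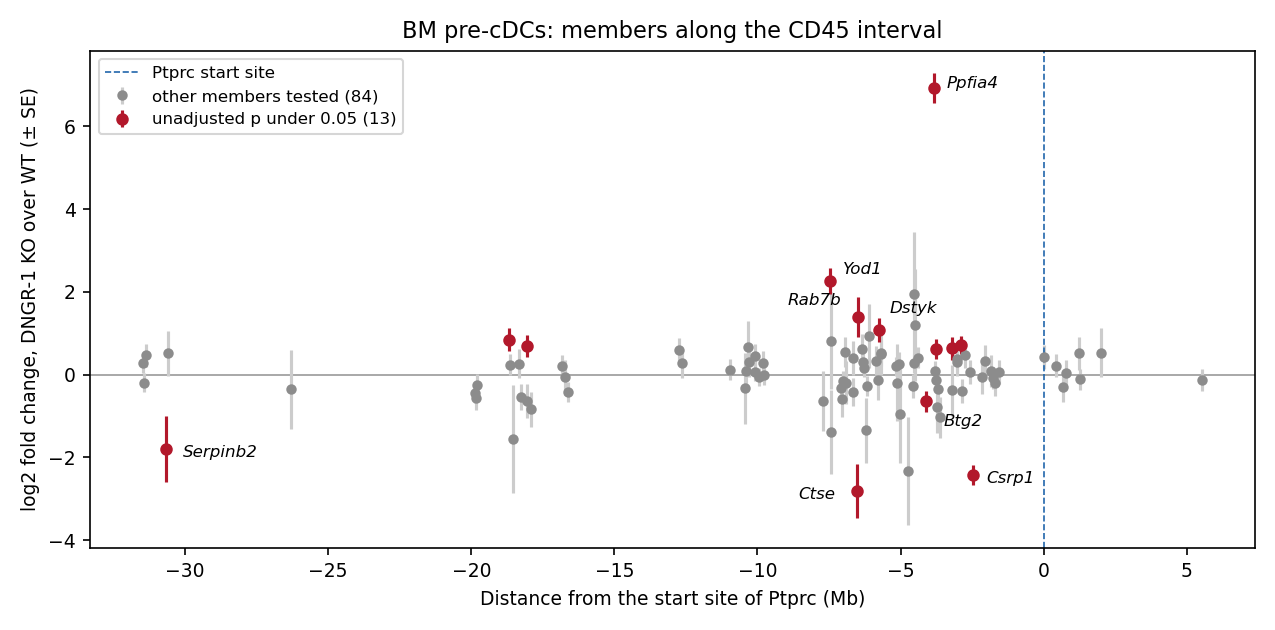
Each point is 1 of the 97 members tested, placed by the distance of its start site from that of Ptprc in Mb (x axis) and by its log2 fold change in BM, DNGR-1 KO over WT (y axis, bars ± SE from edgeR, n = 3 samples per group). The 13 members with an unadjusted p under 0.05 are in red. Ppfia4 at 6.93 and Csrp1 at -2.43 stand 3.84 and 2.46 Mb from Ptprc, and no red point lies on the right of it.

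Along the interval, the 13 members were not spread evenly, and neither were the members themselves. Counted in windows of 5 Mb from the interval's start, the 8 windows held 5, 1, 13, 3, 20, 46, 9 and 1 members. Of these, 1, 0, 2, 0, 1, 9, 0 and 0 had an unadjusted p under 0.05 (edgeR). The sixth window, chr1:131465908-136465907, thus held 46 of the 98 members and 9 of the 13, and its members had a median absolute log2 fold change of 0.40, against 0.40 over all members. The seventh window, which holds Ptprc, had a median absolute value of 0.22 over 9 members, with 0.53 the largest. Serpinb2 was the member farthest from Ptprc among the 13, at 30.7 Mb, and Csrp1 the nearest. None of the 7 members beyond Ptprc, among them Nek7, Dennd1b, Aspm and Cdc73, had an unadjusted p under 0.05.

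The genes next to these 3 members had smaller or opposite values. Around Ppfia4, Btg2 lay at -0.64, Tmem183a, a transmembrane protein gene, at 0.09 (SE 0.23), Cyb5r1 at 0.62, Adipor1, an adiponectin receptor, at -0.12 (SE 0.22) and Klhl12 at -0.78 (SE 0.63). Tmem183a, the nearest of these to Ppfia4, had 982, 1599 and 1635 counts in WT BM and 1900, 1671 and 1462 in DNGR-1 KO BM, which overlapped. Beside Csrp1, Nav1, a microtubule-associated neuron navigator, was at 0.06 (SE 0.30) and Ipo9, an importin, at 0.47 (SE 0.31), while Phlda3 was filtered out of the test. Beside Yod1, Pfkfb2, a regulator of glycolysis, was at -1.39 (SE 1.02) and AA986860 at 0.82, both at low counts.

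Ptprc, the selected gene itself, had 2534, 5091 and 5788 counts in WT BM and 5739, 8033 and 6107 in DNGR-1 KO BM. The groups overlapped by CPM, with means of 241 ± 76.4 and 324 ± 69.5 (SD, n = 3 each) and a log2 fold change of 0.42 (SE 0.29, adjusted p = 0.861, edgeR). WT spleen had 22191 counts of it, and DNGR-1 KO spleen 23959 and 41036, which is 1.01-fold and 1.32-fold higher by CPM. The antibody-defined difference between the allotypes lies in the protein and is not measured by these counts.

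Across all 97 members tested, 53 had a positive and 44 a negative log2 fold change, from -2.81 to 6.93. Their median was 0.08, against -0.0045 over all genes tested, and it was -0.0024 without WT BM sample 1 and 0.18 without WT BM sample 2. Their median absolute log2 fold change was 0.40, against 0.29 over all genes and 0.29 over the 557 genes tested on the rest of chromosome 1. An absolute value above 1 was reached by 14 members (14.4%), against 7.34% of all genes tested and 4.49% of the rest of chromosome 1, and by 12 of 95 (12.6%) without Serpinb2 and Sox13, which passed the count minimum through the WT samples alone. An unadjusted p under 0.05 was reached by 3.41% of the genes on the rest of chromosome 1 and by 3.43% of the 10725 coding genes tested on other chromosomes. The 3 WT and 3 DNGR-1 KO samples did not overlap for 17 members (17.5%; 9 higher and 8 lower), against 9.53% of all genes tested and 8.08% of the rest of chromosome 1. Without Serpinb2 and Sox13, 15 of 95 (15.8%) did not overlap. The others without overlap and without an unadjusted p under 0.05 were Zranb3, Slc41a1, 3110009E18Rik, Elk4 and Rabif. Zranb3, a DNA translocase of stalled replication forks, had 138, 306 and 275 counts in WT BM and 419, 328 and 339 in DNGR-1 KO BM, at a log2 fold change of 0.44 (SE 0.31). Slc41a1, a magnesium transporter, had 74, 203 and 214 against 306, 288 and 238, at 0.61 (SE 0.38). Elk4, an ETS transcription factor, was lower at -0.27 (SE 0.24), and Rabif, which binds RAB GTPases, at -0.34 (SE 0.23).

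**Figure D2:**
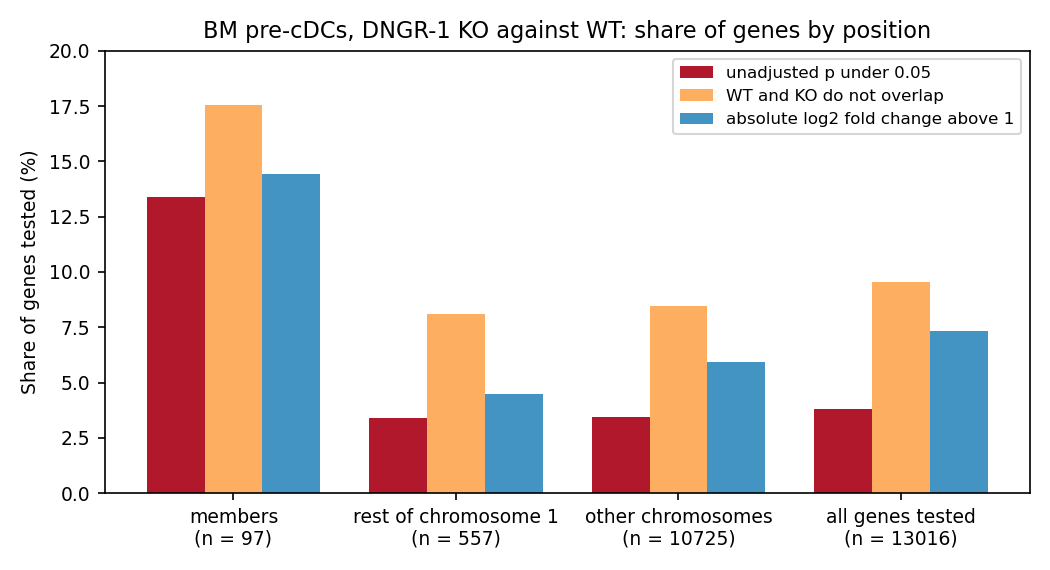
Bars give the share of genes tested in BM (y axis, %, from 0) for the members, the other coding genes of chromosome 1, the coding genes of the other chromosomes, and all genes tested, under each of 3 measures. The members stand at 13.4%, 17.5% and 14.4%, or 12.6%, 15.8% and 12.6% without Serpinb2 and Sox13, against 3.83%, 9.53% and 7.34% of all genes; the shares are descriptions with no test.

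The remaining members with an unadjusted p under 0.05 all had an adjusted p of 0.861 (edgeR), so they are given as values. Among genes of kinases and signaling, 2 of 15 members were on this list and both were higher, against 1.56% of all genes tested. Dstyk, which encodes a dual-specificity kinase, had 146, 225 and 304 counts in WT BM and 481, 550 and 555 in DNGR-1 KO BM, with no overlap at a log2 fold change of 1.08 (SE 0.30). Ralb, a RAS-like GTPase that acts through the exocyst, had 725, 873 and 1252 counts in WT BM and 1474, 2226 and 1988 in DNGR-1 KO BM, at 0.84 (SE 0.27). Its highest WT level of 64.8 CPM and its lowest DNGR-1 KO level of 67.0 CPM nearly met. Rassf5, which encodes a RAP1 effector in leukocyte adhesion, had 1175, 3517 and 4091 counts in WT BM and 4481, 5555 and 4016 in DNGR-1 KO BM and overlapped, at 0.54 (SE 0.36).

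The genes of membrane traffic and metabolism had 22 members, of which 5 had an unadjusted p under 0.05, all of them higher, against 1.56% of all genes tested. The lists were drawn up with earlier results known, so these counts are descriptions. Yod1 was the first of these. Rnpep, the arginine-removing aminopeptidase B, had 1253, 1424 and 1252 counts in WT BM and 2353, 2734 and 2251 in DNGR-1 KO BM, at a log2 fold change of 0.72 (SE 0.22). The groups did not overlap, and in spleen the DNGR-1 KO samples had 2264 and 2963 counts against 536 in the WT sample. Rab7b, a small GTPase of late endosomes and the Golgi, had 273, 503 and 864 counts in WT BM and 664, 2171 and 1809 in DNGR-1 KO BM, at 1.39 (SE 0.49) with overlap. Dbi, the acyl-CoA binding protein, had 1877, 1363 and 1581 counts in WT BM and 2512, 2911 and 3453 in DNGR-1 KO BM, at 0.70 (SE 0.26) and its groups just overlapped, with a WT sample at 114.5 CPM and a DNGR-1 KO sample at 114.2 CPM. Cyb5r1, a cytochrome b5 reductase, had 431, 395 and 602 counts in WT BM and 841, 850 and 791 in DNGR-1 KO BM, at 0.62 (SE 0.25) without overlap.

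Of the 5 members among CD45, immune receptors and related genes, only Ctse, which was lower, had an unadjusted p under 0.05, against 2.27% of all genes tested. Ctse encodes cathepsin E, an aspartic protease of endosomes. It had 10367, 10835 and 9734 counts in WT BM and 3946, 428 and 854 in DNGR-1 KO BM. The groups did not overlap, but DNGR-1 KO sample 1 lay between WT and the other DNGR-1 KO samples, and the means were 570 CPM ± 64.5 for WT and 81.4 CPM ± 85.6 for DNGR-1 KO (SD, n = 3 each). The log2 fold change was -2.81 (SE 0.65, unadjusted p = 0.00163, edgeR), and without that sample -4.14 (adjusted p = 0.00607). Over all 14 alternatives its adjusted p ran from 0.00607 to 0.9999 and passed in 2. In spleen Ctse had 325 and 971 counts for DNGR-1 KO against 5553 for WT, 18.2-fold and 8.03-fold lower.

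The cytoskeletal and adhesion genes had 11 members tested, of which Ppfia4 and Csrp1 alone had an unadjusted p under 0.05 (3.83% of all genes tested did), and the median log2 fold change of the 11 was 0.06. Actr3, which encodes a core subunit of the actin-nucleating ARP2/3 complex, had the highest level per kb of exon of all members, 268 CPM per kb over the BM samples. Its counts overlapped between WT (10949, 19465 and 24449) and DNGR-1 KO BM (25866, 35962 and 29922) by CPM, at a log2 fold change of 0.60 (SE 0.28, unadjusted p = 0.0555, edgeR). The next highest levels per kb were those of Mcm6, a subunit of the replicative helicase (122), of Snrpe, a core protein of spliceosomal snRNPs (111), of Ctse (103) and of Dbi (82.4).

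Among cell cycle, replication and repair genes, 1 of 10 members tested was higher and 1 lower at an unadjusted p under 0.05, against 1.56% and 2.27% of all genes tested. Btg2, an antiproliferative partner of the CCR4-NOT deadenylase, was lower at 102, 177 and 134 CPM in DNGR-1 KO BM against 213, 189 and 243 CPM in WT BM, a log2 fold change of -0.64 (SE 0.25). Ube2t, the ubiquitin-conjugating enzyme of the Fanconi anemia pathway, was higher at 50.1, 58.8 and 66.4 CPM against 49.9, 30.4 and 32.9 CPM in WT BM, at 0.63 (SE 0.27). WT sample 1 and DNGR-1 KO sample 1 thus stood side by side. Mcm6 had a log2 fold change of 0.29 (SE 0.29, adjusted p = 0.870, edgeR).

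None of the 16 members among transcription, chromatin and RNA genes had an unadjusted p under 0.05 (edgeR), against 3.83% of all genes tested, and 10 of them had a negative log2 fold change, as did 6562 of the 13016 genes tested. Kdm5b, a histone H3K4 demethylase, had the lowest p of these (0.0608, log2 fold change -1.03, SE 0.49), with 224, 518 and 323 counts in WT BM and 351, 79 and 163 in DNGR-1 KO BM. Sox13, a SoxD transcription factor, had 12, 14 and 14 counts in WT BM and 9, 0 and 0 in DNGR-1 KO BM. Of the 3 members among apoptosis and serpin genes, Serpinb2, the plasminogen activator inhibitor-2, had 13, 22 and 19 counts in WT BM and 4, 7 and 6 in DNGR-1 KO BM. Bcl2, the antiapoptotic mitochondrial protein, was at 50.7 CPM ± 10.1 for WT and 61.9 CPM ± 7.09 for DNGR-1 KO BM (SD, n = 3 each), a log2 fold change of 0.29 (SE 0.24). The remaining 15 members are in none of these lists, and none of them had an unadjusted p under 0.05.

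**Figure D3:**
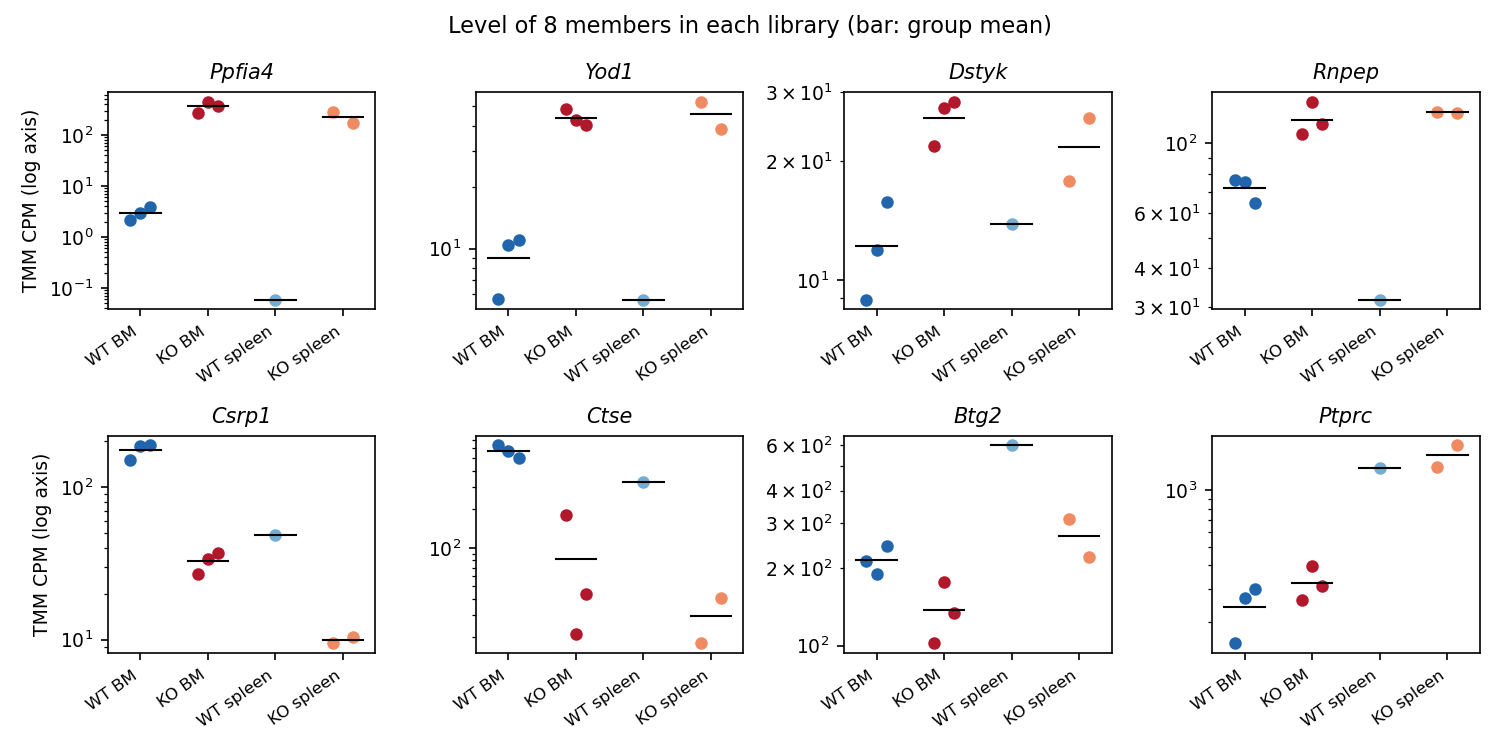
Each panel gives the TMM-normalized CPM of 1 member (y axis, log scale, own range) in the 3 WT BM, 3 DNGR-1 KO BM, 1 WT spleen and 2 DNGR-1 KO spleen samples, with a bar at each group's mean. Ppfia4 and Yod1 are higher and Csrp1 and Ctse lower in every DNGR-1 KO sample of both tissues, while the Ptprc groups of BM overlap.

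The 3 DNGR-1 KO BM samples were unequally far from WT, over the members as over all genes. In sample 1, 54.6% of the 97 members tested lay within the range of the 3 WT samples by CPM, against 29.9% in sample 2 and 43.3% in sample 3. Over all genes tested the shares were 62.9%, 40.7% and 46.1%, in the same order. Sample 1 also had 341 counts of the 4 Y chromosome genes, against 9 in sample 2 and 0 in sample 3, and a link with its values was not tested. For 14 members (14.4%, against 11.3% of all genes tested) samples 2 and 3 were below all WT samples and sample 1 was not, among them Steap3, Klhl12, Kdm5b, Slc45a3, Epb41l5 and Cd55. For 7 members (7.22%, against 8.83%) samples 2 and 3 were above all WT samples and sample 1 was not (Dbi, Actr3, Rab7b, Rab29, Mfsd4a, Atp2b4 and Ptprc). Without sample 1, 21 members had an unadjusted p under 0.05 in place of 13, with 10 shared, and 3 had an adjusted p under 0.05, Ctse joining Ppfia4 and Csrp1 (edgeR). The share of all genes with an unadjusted p under 0.05 moved from 3.83% to 9.59% at the same time.

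An erythroid marker moved with that pattern. Klf1, the transcription factor that drives erythroid genes, had 5625, 4153 and 2722 counts in WT BM and 3835, 233 and 833 in DNGR-1 KO BM. Steap3, the ferrireductase through which erythroid precursors take up iron, had 1831, 2049 and 1312 counts in WT BM and 2054, 556 and 776 in DNGR-1 KO BM. Klhl12, an adaptor of a cullin ubiquitin ligase, had 422, 650 and 484 against 750, 69 and 233, and Cd55, the complement decay-accelerating factor, 299, 164 and 150 against 377, 45 and 53. In these 3 members and in Kdm5b, sample 1 stood at or above the lowest WT sample and samples 2 and 3 below it. The globin genes Hba-a1 and Hbb-bs did not follow it, with 226 to 1448 and 41 to 1212 counts in WT BM and 652 to 1727 and 745 to 1901 in DNGR-1 KO BM. The part of Klf1-expressing cells in these members' values was not tested, and in bulk samples fewer cells of a type and less RNA per cell cannot be told apart.

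**Figure D4:**
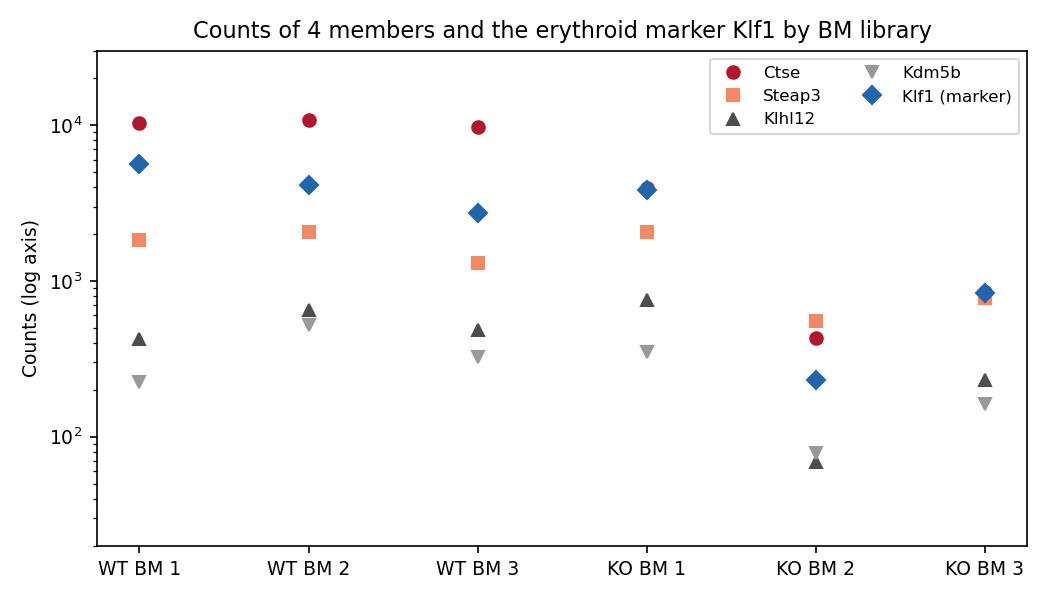
Points give the counts (y axis, log scale) of the members Ctse, Steap3, Klhl12 and Kdm5b and of the erythroid marker Klf1 in each of the 6 BM samples (x axis). DNGR-1 KO samples 2 and 3 are the lowest for Klf1 (233 and 833) and for Ctse (428 and 854), and sample 1 lies near WT for the others shown.

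Spleen samples, which the choice of members did not use, were read for direction. Their differences from WT are descriptions, since a single WT sample gives no replicate check. The interaction fit given below rests on that sample too. Of the 13 members with an unadjusted p under 0.05 in BM, 7 lay in the BM direction in both DNGR-1 KO spleen samples (Ppfia4, Csrp1, Yod1, Ctse, Dstyk, Rnpep and Btg2), 1 lay opposite in both (Ralb), and 5 did neither. The 7 of 13 (53.8%) compare with 23.9% of the 498 genes with an unadjusted p under 0.05 in BM and 28.0% of all genes tested in BM. Over all 97 members tested, 36 (37.1%) kept their BM direction in both and 19 (19.6%) were opposite in both. The same WT spleen sample serves both differences of each gene.

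The log2 differences of the 7 from WT spleen, with a prior count of 2, were -2.34 and -2.21 for Csrp1, 3.19 and 2.76 for Yod1, -4.18 and -3.00 for Ctse, 1.98 and 1.97 for Rnpep, 0.36 and 0.89 for Dstyk and -0.95 and -1.44 for Btg2. Those of Csrp1 lay close to its BM value of -2.43 in both samples, and those of Rnpep lay above its BM value of 0.72. Ppfia4 had a single count in WT spleen, so its spleen difference rests on that count and is given as counts above. Ralb had 2094 counts in WT spleen and 1970 and 1827 in DNGR-1 KO spleen, differences of -0.18 and -0.69 against 0.84 in BM. Rab7b was split by CPM, at 198.5 and 40.4 CPM in DNGR-1 KO spleen against 43.3 CPM in WT spleen.

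**Figure D5:**
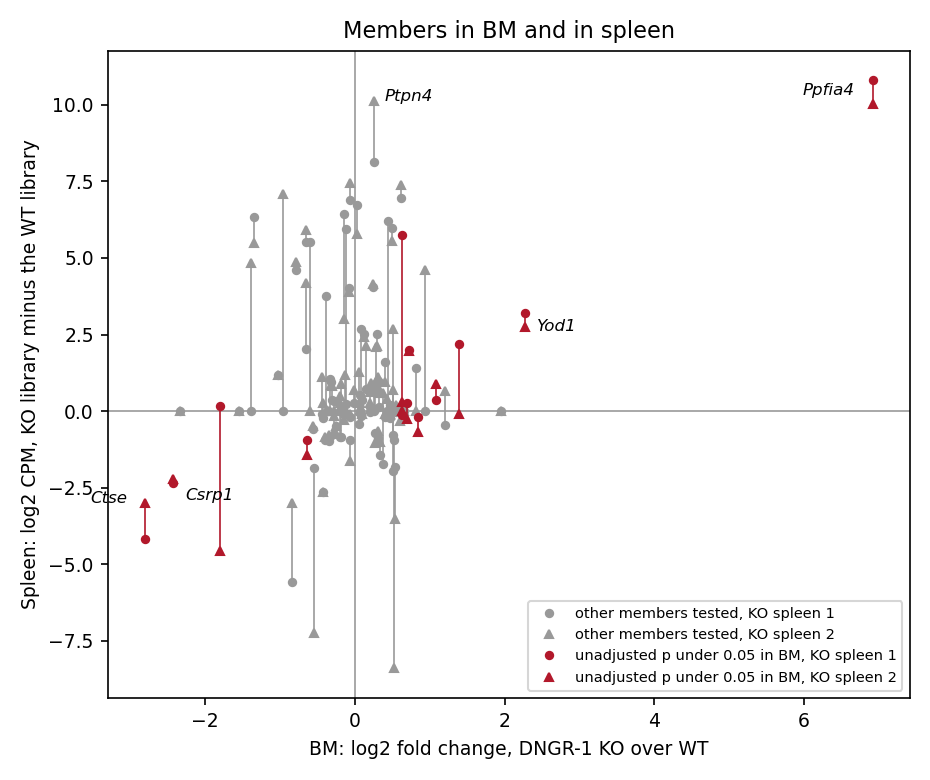
Each member tested is placed by its BM log2 fold change (x axis, DNGR-1 KO over WT) and by the log2 CPM difference of each DNGR-1 KO spleen sample from the WT spleen sample (y axis, circles for sample 1, triangles for sample 2, joined by a line). Csrp1, Ctse, Yod1 and Ppfia4 lie in the same quadrant in both tissues, and Ptpn4 has a BM value of 0.26 with spleen counts of 507 and 2695 against 0 in WT.

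Several members lay far apart in spleen and close together in BM. Ptpn4, a nonreceptor tyrosine phosphatase, had 0 counts in WT spleen and 507 and 2695 in DNGR-1 KO spleen, but 105, 88 and 133 in WT BM and 172, 148 and 124 in DNGR-1 KO BM. Slc41a1 had 4 counts against 747 and 1344 in spleen. Tmem9, a protein of lysosomal membranes, had 0 against 215 and 418, and Dennd1b, an exchange factor for RAB35, 4 against 643 and 437. Lower in spleen were Serpinb8, a serine protease inhibitor, with 322 and 0 counts against 577, and Tmem177, a mitochondrial membrane protein, with 202 and 4 against 689. The WT spleen sample had 25 members at 0 counts and 26 at 3 or fewer, against 16 and 17 at 3 or fewer in the DNGR-1 KO spleen samples and 0 to 5 in the BM samples. Over all genes tested in BM the shares at 3 or fewer counts were 23.4%, 16.0% and 16.8% in the spleen samples.

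In 1 fit over all 9 samples, the genotype difference itself differed between spleen and BM for 10 of 98 members at an adjusted p under 0.05 (edgeR), against 7.01% of the 15813 genes tested. These were Ptpn4, Slc41a1, Tmem9, Dennd1b, Tmem185b, 3110009E18Rik, Ddx59, Tmem81, Ppfia4 and Fam72a. In each of them the WT spleen sample had 31 counts or fewer, and the fit assumes that this lone sample varies like the other groups. With limma-voom 0 members passed, as did 0 of all 15813 genes tested. When every sample had to hold 10 counts, only Tmem185b of the 61 members tested passed, against 167 of all 8579 genes tested.

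The tissues, compared in a fit of all 9 samples that also held genotype, differed for more members than the genotypes did. Relative to BM, 10 of 98 members rose and 17 fell in spleen (edgeR adjusted p under 0.05), against 5.98% and 9.70% of the genes tested. Ptprc rose by a log2 value of 2.34 (SE 0.23, adjusted p = 0.00029, edgeR), from 2534 to 8033 counts in BM to 22191 to 41036 in spleen without overlap. Lax1, an adaptor protein of lymphocytes, rose by 6.32 (adjusted p = 0.00358), from 0 to 46 counts in BM to 933 to 2651. The T and NK cell markers rose in the same samples, and their part in the Lax1 and Ptprc values was not tested. Rassf5 rose by 1.23 (adjusted p = 0.0244). Kif14, a mitotic kinesin, fell from 339 to 727 counts in each BM sample to 0, 0 and 1 in spleen. Mcm6 fell by 2.85 (adjusted p = 0.00378) and Nucks1, a chromatin-associated phosphoprotein, by 2.93 (adjusted p = 0.00181). Csrp1 fell by 1.75 between the tissues (adjusted p = 0.000788), and within each tissue its DNGR-1 KO samples lay below the WT samples.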

How the data were processed

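The 9 bulk RNA-seq samples of sorted pre-cDCs were assigned to groups from the genotype and tissue fields of their labels. The authors deposited expected counts per gene, not normalized, of which 25.6% of the nonzero values were not whole, so they were rounded, although the design had been written for counts. The authors also deposited log2-scale values after a variance stabilizing transformation (VST) for 20810 genes. The submitters' processing notes name Trimmomatic 0.36, RSEM 1.3.0, STAR 2.5.2, DESeq2 1.18.1, R 3.4.3 and GRCm38. The study regressed out a score of genes of this interval, and no such covariate was used here, since it would remove the differences described.

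GENCODE M21 gave symbols for 51633 of 51912 identifiers and the coordinates. The interval came from the study's methods, some genes are not reported here, and the members, lists and tests were chosen with earlier results of these data known. Rounded counts went into the quasi-likelihood test of edgeR 4.0.16 under R 4.3.3 (filterByExpr, TMM, Benjamini-Hochberg adjustment over all genes tested, threshold 0.05), after a check on simulated data. Standard errors were taken from the F statistic. CPM are TMM-normalized, within the 6 BM samples for BM values and over all 9 samples for spleen values, and log2 CPM used a prior count of 2. At 3 against 3, an exact permutation test of a single gene cannot go below a p of 0.10, so none was run. The interaction was tested over all 9 samples. The comparison of tissues was chosen after seeing the data. The genes named are members with an adjusted p under 0.05, those with an unadjusted p under 0.05 and no overlap, Ptprc, those at 10 counts in 1 BM genotype alone, the 5 highest per kb of exon, the 5 highest and 5 lowest in spleen, and 3 with the lowest p per list. Other members, such as Steap3, Klhl12, Lax1 and Kif14, were chosen after their values were seen. Replicates differed by far more than sampling noise (chi-square per gene 30.8 to 267). Alternatives were DESeq2 1.42.0, limma 3.58.1 (voom, or on VST values), upper-quartile normalization, other filters, a replicate block, all 9 samples in 1 fit, another prior count, CPM of the total count, and each sample left out. RefSeq promoter windows (GRCm38.p6) were matched by symbol.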

Additional observations from a re-analysis of the deposited data

Results flagged for a closer look

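The genotype difference differed between spleen and BM for 10 members by the interaction test (edgeR), with adjusted p of 0.00318 for Ptpn4, 0.00451 for Slc41a1, 0.00454 for Tmem9, 0.00506 for Dennd1b, 0.00519 for Tmem185b, 0.00661 for 3110009E18Rik, 0.00975 for Ddx59, 0.0166 for Tmem81, 0.0194 for Ppfia4 and 0.0287 for Fam72a. In 9 of the 10 the WT spleen sample had the fewest counts of the 3 spleen samples, from 0 to 31. In Fam72a it had 9 against 0 and 0. The calls rest on that 1 WT spleen sample. With limma-voom 0 of the 98 members passed, as did 0 of all 15813 genes tested.

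Ralb lay above WT in all 3 DNGR-1 KO BM samples and below WT in both DNGR-1 KO spleen samples, where its mean log2 difference was -0.43. Its interaction had an adjusted p of 0.205 (edgeR).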

How the results depend on the processing

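Members at few counts are the least certain, and the WT spleen sample held 26 at 3 counts or fewer. WT BM sample 1 held 3 such members at a similar total count (17457336, against 17103832 in WT spleen). Over all genes tested in BM, the shares at 3 counts or fewer were 23.4% in WT spleen and 2.0% in WT BM sample 1. Ppfia4 passed in all 14 alternatives run, at log2 fold changes of 3.77 (VST values) to 7.55. The count of members with an adjusted p under 0.05 was 2, and 4 without a filter on low counts, where Ctse and Yod1 joined. Leaving out 1 BM sample gave 1 to 3 such members, 7 to 21 members with an unadjusted p under 0.05 (1.54% to 9.59% of all genes), and 21 to 38 members without overlap (14.4% to 29.6% of all genes), in part because fewer samples are easier to separate. The highest counts, 21 and 38, came without DNGR-1 KO BM sample 1, where the shares of all genes were also highest. The median log2 fold change of the members was 0.24 with all 9 samples in 1 fit, and their median absolute value was 0.18 on VST values, where the transformation shrinks low genes. The sign of the log2 fold change reversed for Serpinb8 (-0.30) with all 9 samples in 1 fit and for Snrpe without WT BM sample 1 (0.10; -0.44 to 0.10 over all left-out samples), neither of which passed a threshold. The cause was not tested. The interaction was called for 10 members, 0 with limma-voom, 1 with at least 10 counts in every sample, and 18 to 23 with 1 DNGR-1 KO spleen sample left out. Over all genes tested, the interaction calls fell and rose in the same settings as those of the members. Leaving out a DNGR-1 KO spleen sample leaves a single spleen sample of each genotype, so no conclusion is drawn from the rise. Members lower in spleen than in BM numbered 17, and 6 of the 61 tested with at least 10 counts in every sample. That filter leaves out any member under 10 counts in a spleen sample. Over all genes, 2479 of 15813 tested differed between tissues in either direction, and 1762 of 8579 with that filter. The WT and DNGR-1 KO BM samples came from the same chimeras, but the sources used here do not say that a shared number marks the same pair of mice. Deviations of same-numbered samples correlated at 0.11, 0.14 and -0.11 over all genes tested, and those of differently numbered samples at -0.32 to 0.26. The neutrophil gene S100a8 did follow the number, with 2995, 227 and 831 counts in WT and 3297, 293 and 818 in DNGR-1 KO BM. With the replicate block 2 members had an adjusted p under 0.05 and 14 an unadjusted p under 0.05, 11 of them among the 13. Ube2t and Serpinb2 left that list and Steap3, Cd55 and Actr3 joined it, while no adjusted call of a named member changed.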
